A study of Mus musculus with 17 samples.

Results

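The D cyclins, the kinases they activate and the inhibitors that hold those kinases in check were examined in cell lines from MMTV-PyMT mice. In this model the promoter of the mouse mammary tumor virus drives the polyoma middle T oncogene in mammary epithelium, and the tumors spread to distant organs. The genes were chosen by name and number 10 of the 55450 genes listed: *Ccnd1*, *Ccnd2*, *Ccnd3*, *Cdk4*, *Cdk6*, *Cdkn2a*, *Cdkn2b*, *Cdkn2c*, *Cdkn1b* and *Rb1*. All 10 were measured, and all 10 passed the filter on low values.

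All of the lines came from young adult FVB/NJ female mice that carried the MMTV-PyMT transgene, and no group received a treatment. Tumor-bearing organs, namely the lymph node (LN), the bone marrow (BM) and the lung, were dissociated, cultured for weeks to enrich for cancer cells, and sorted as EpCAMhigh cells with either low (CD44low) or high (CD44high) surface CD44. The cells of the primary tumor in the mammary fat pad (MFP) carry no CD44 status in the labels. Bulk RNA-seq covered 14 libraries, 2 for each of 7 groups, and scRNA-seq covered 3 libraries, 1 each for lung-derived CD44high (lungH), lung-derived CD44low (lungL) and LN-derived CD44high cells (lymphH). The methods describe replicates as separate clonal isolates from different mice, so each library stands for 1 isolate and each p-value for the spread between isolates.

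D-type cyclins bind Cdk4 or Cdk6 in response to growth signals, and the active kinase phosphorylates the retinoblastoma protein, which then releases E2F factors that drive the genes of DNA replication. The INK4 inhibitors bind Cdk4 and Cdk6 and keep the D cyclins out, while *Cdkn1b* encodes an inhibitor of the Cip/Kip family that acts mainly on Cdk2. In breast cancer this switch is the target of drugs that inhibit both kinases, and *Ccnd1* is the D cyclin best known in mammary epithelium.

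The bulk values are transcript abundances scaled by gene length (TPM), so levels of different genes within a library can be compared. TPM keeps no record of the reads behind a value, and the methods state only a minimum depth, so the exact depth of each library is unknown. In each library 11508 to 13052 genes were at 1 TPM or more. Comparisons used limma on log2(TPM + 1), and differentially expressed genes (DEGs) had to pass an adjusted p of 0.05 with a log2 fold change beyond 2 in either direction. The pseudocount makes fold changes too small for genes near 0, and no fold is given against a group listed at 0 in both libraries. Paired values are given for replicate 1 and then replicate 2.

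The lung libraries did not match the EpCAMhigh sort at the RNA level. *Epcam* was listed at 0 in both lung-derived CD44low libraries and at 0.23 and 0.86 TPM in the lung-derived CD44high libraries, against 315 to 941 TPM in the 10 other libraries. Of the 7 epithelial markers, 5 were listed at 0 in both lung-derived CD44low libraries and 2 in both lung-derived CD44high libraries, with summed levels of 1.64 to 2.20 and 15.7 to 87.5 TPM. The summed level of the 7 fibroblast markers was 4679 to 5049 TPM in lung-derived CD44low cells, 85.7 to 195 TPM in lung-derived CD44high cells and 0.48 to 19.9 TPM elsewhere. Leukocyte and endothelial markers summed to at most 23.2 and 0.21 TPM in any library, the former in MFP. *Cd44* RNA did not follow the sort: it was at 146.7 and 82.7 TPM in CD44low and 49.04 and 52.3 TPM in CD44high LN-derived cells, and the BM groups and the lung groups overlapped. LN- and BM-derived cells differed from MFP in some of these markers too. *Cldn7* was at 428 and 321 TPM in MFP and at most 0.65 TPM elsewhere, *Krt14* and *Cdh1* were lower in all 4 LN and BM groups (limma, adjusted p = 0.00206 or less), and *Pdgfrb* was at 0 to 0.02 TPM in MFP and 1.34 to 9.9 TPM in LN and BM. The groups compared below thus differed in these markers too, and the part of the markers in the results was not tested. *Cdkn2b* followed the order of neither sum. It was at 51.9 TPM or more in MFP and lung-derived CD44low cells, which held opposite ends of the epithelial and the fibroblast sums. In bulk RNA, fewer cells of a type and less RNA per cell cannot be told apart.

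**Figure D1:**
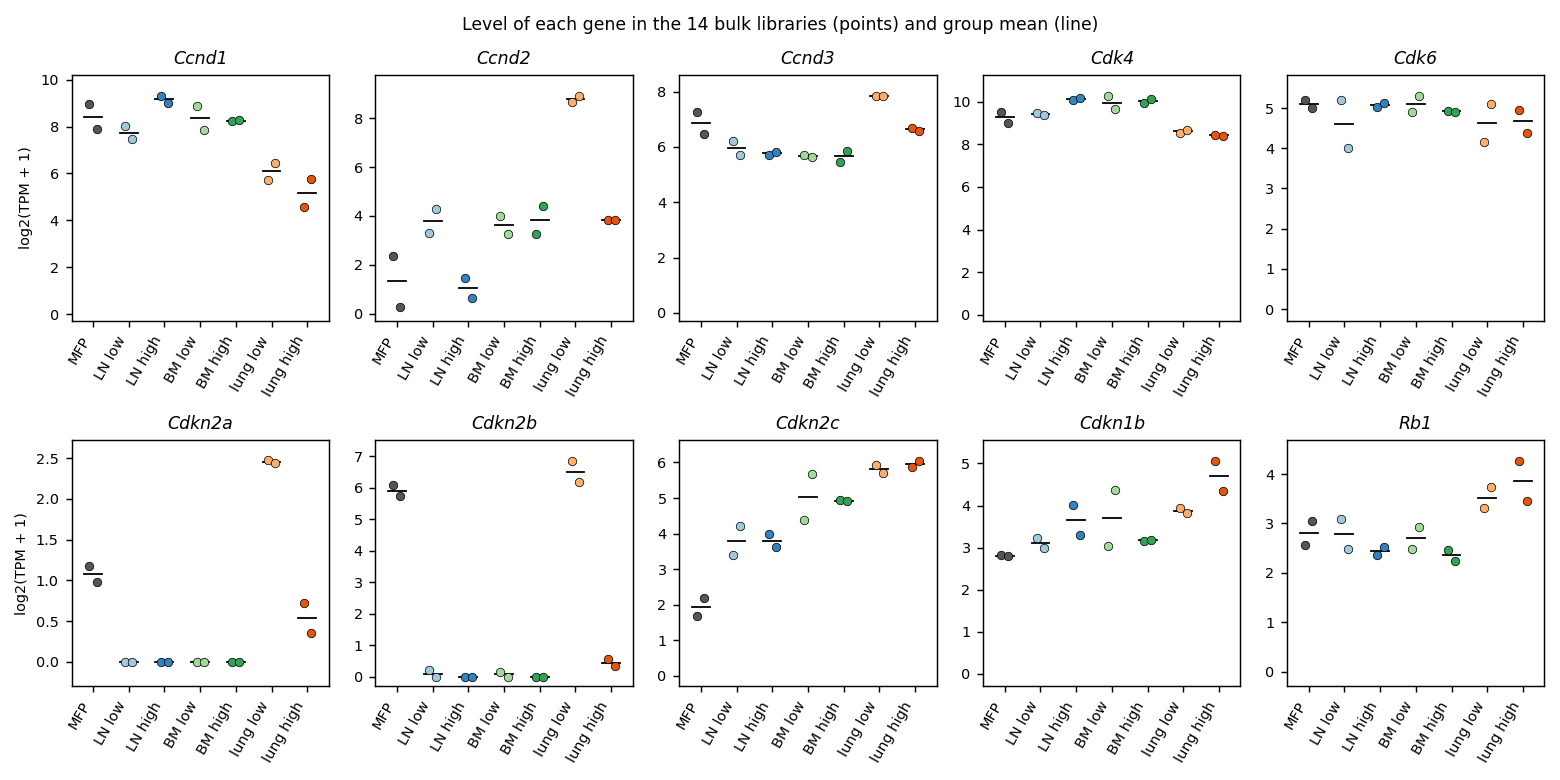
Level of each of the 10 genes as log2(TPM + 1) (y axis) in the 7 bulk groups (x axis). Points are the 2 libraries of a group and lines their mean. The lung groups hold the lowest *Ccnd1* and *Cdk4* levels, and lung-derived CD44low cells the highest *Ccnd2*, *Ccnd3*, *Cdkn2a* and *Cdkn2b* levels.

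In bulk RNA the most abundant D cyclin of lung-derived CD44low cells was *Ccnd2*, which led in no other group. *Ccnd2* was at 408 and 474 TPM in these cells and at 0.21 to 20.4 TPM in the 12 other libraries, while *Ccnd1* was low in both lung groups and *Ccnd3* was highest in lung-derived CD44low cells. The summed level of the 3 D cyclins was nonetheless 686 and 786 TPM in lung-derived CD44low cells, near the 677 and 573 TPM of LN-derived CD44high cells. It was lowest in lung-derived CD44high cells, at 138 and 161 TPM.

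**Figure D2:**
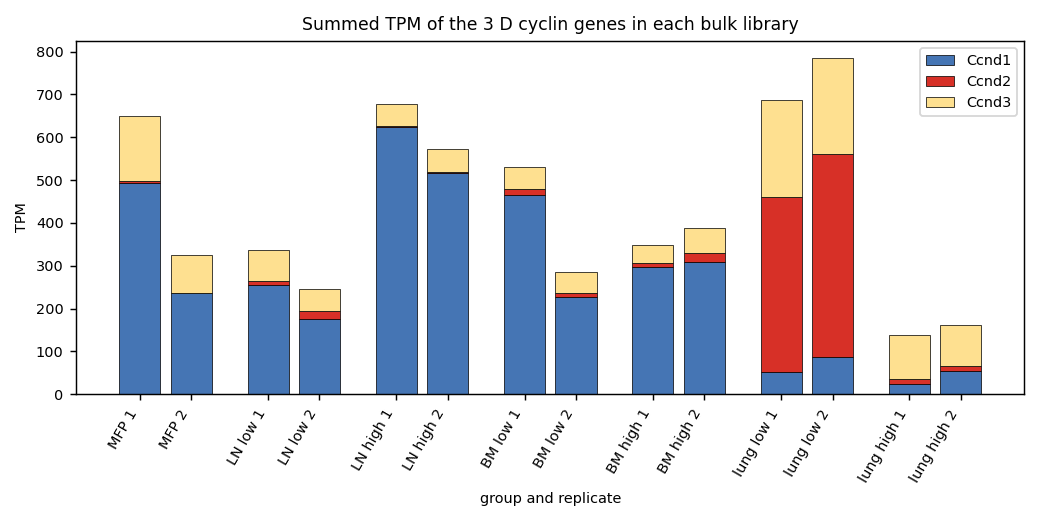
Summed TPM of the 3 D cyclin genes (y axis) in each of the 14 bulk libraries (x axis), stacked by gene. *Ccnd1* made up 71.5% to 92.1% of the sum in the 10 MFP, LN and BM libraries, *Ccnd2* 59.4% and 60.3% in lung-derived CD44low cells, and *Ccnd3* 73.7% and 58.9% in lung-derived CD44high cells.

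*Ccnd1* (chr7:144929931-144939925, minus strand of mm10) was at 493 and 237 TPM in MFP. LN-derived cells had 256 and 175 TPM in the CD44low and 624 and 518 TPM in the CD44high group, and BM-derived cells 464 and 227 TPM in the CD44low and 298 and 309.6 TPM in the CD44high group. In lung-derived cells it was at 51.9 and 86.6 TPM (CD44low) and 22.9 and 53.3 TPM (CD44high). All 4 lung libraries therefore lay below the 10 others, and the 2 lung groups overlapped. In the order of group means, LN-derived CD44high cells came first and stood apart from the rest, MFP overlapped with BM-derived CD44low cells, and the latter with BM-derived CD44high cells. Compared to MFP, *Ccnd1* fell by 2.33 ± 0.50 (SE; limma, adjusted p = 0.00387) in lung-derived CD44low and by a log2 fold change of -3.25 ± 0.50 (adjusted p = 7.28e-04) in lung-derived CD44high cells. Both calls passed the adjusted p with each library left out, and the former was under the fold of a DEG in 2 of those 14 fits (lowest size -1.80). Against the 8 LN and BM libraries, the 4 lung libraries were lower by a log2 fold change of -2.74 ± 0.30 (limma, adjusted p = 3.87e-05). A part of *Ccnd1* overlaps *LTO1* on the other strand, which was at 6.8 to 62.8 TPM, and the libraries carry no strand.

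*Ccnd2* (chr6:127125162-127152193, minus strand) was at 4.2 and 0.21 TPM in MFP, and at 1.77 and 0.58 TPM in LN-derived CD44high cells. It was at 9 and 18.5 TPM in LN-derived CD44low cells, at 15.2 and 8.7 TPM in BM-derived CD44low cells, at 8.72 and 20.4 TPM in BM-derived CD44high cells and at 13.3 and 13.1 TPM in lung-derived CD44high cells. These last 4 groups overlapped with one another along the order of group means, MFP and LN-derived CD44high cells overlapped below them, and lung-derived CD44low cells stood alone at the top. Compared to MFP, the log2 fold change in lung-derived CD44low cells was 7.46 ± 0.66 (limma, adjusted p = 1.21e-05), and it stayed between 6.40 and 8.51 with each library left out in turn. Smaller rises passed the test in LN-derived CD44low (2.48), BM-derived CD44low (2.32), BM-derived CD44high (2.52) and lung-derived CD44high cells (2.50), with limma adjusted p between 0.0146 and 0.0339. These 4 calls rested on the MFP library at 0.21 TPM: without it the log2 fold changes were 1.42, 1.27, 1.47 and 1.45, with limma adjusted p of 0.112 to 0.219. The LN-derived CD44low call was also lost without LN CD44low replicate 2 (2.00, limma adjusted p = 0.182) or any 1 of the 4 lung libraries (adjusted p = 0.0543 to 0.065). The BM-derived CD44low call was lost without either of its own libraries (0.103 and 0.0511) or either lung-derived CD44low library (0.0573 and 0.0572), the BM-derived CD44high call without its replicate 2 (1.95, 0.13), and the lung-derived CD44high call without either of its own libraries (0.0703 and 0.0605).

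*Ccnd3* (chr17:47505051-47599691, plus strand) varied least of the D cyclins. It was at 227 and 226 TPM in lung-derived CD44low cells, 102 and 95.01 TPM in lung-derived CD44high cells, 153 and 88.0 TPM in MFP, and 42.6 to 73.3 TPM in LN- and BM-derived cells, whose 8 libraries lay below the 6 others. Its log2 fold change against MFP was 0.96 ± 0.27 in lung-derived CD44low cells (limma, adjusted p = 0.0168), and it fell in LN-derived CD44high (-1.11), BM-derived CD44low (-1.20) and BM-derived CD44high cells (-1.22; adjusted p = 0.0155, 0.0112 and 0.0092). The rise was lost without MFP replicate 2 (0.56, limma adjusted p = 0.138) and the 3 falls without MFP replicate 1 (-0.71, -0.80 and -0.82, adjusted p = 0.114, 0.0847 and 0.0694). The rise was also lost without either lung-derived CD44low library (limma, adjusted p = 0.071 and 0.0696), the LN fall without either LN-derived CD44high library (0.087 and 0.0657), and the BM-derived CD44high fall without its replicate 1 (0.0795). Under median-ratio scaling, which divides each library by a size factor, the falls in LN- and BM-derived CD44high cells were -0.58 and -0.66 (limma, adjusted p = 0.177 and 0.116).

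*Cdk4* (chr10:127063534-127067920, plus strand), a partner kinase of the D cyclins, was the most abundant of the 10 genes in every library except those of lung-derived CD44low cells, where *Ccnd2* was higher. It was at 739.8 and 504 TPM in MFP, 660.1 to 1139.9 TPM in LN-derived and 813 to 1215 TPM in BM-derived cells. The lung-derived cells had 374 and 409.9 TPM (CD44low) and 350.1 and 329.7 TPM (CD44high), and these 4 libraries lay below the 10 others. Against LN and BM, lung was lower by a log2 fold change of -1.36 ± 0.15 (limma, adjusted p = 3.02e-05). Changes against MFP were smaller: 0.85 in LN-derived CD44high (limma, adjusted p = 0.0278), 0.78 in BM-derived CD44high (0.0364) and -0.84 in lung-derived CD44high cells (0.0197). Without MFP replicate 2 the first 2 were 0.58 and 0.50 (limma, adjusted p = 0.196 and 0.238), and without MFP replicate 1 the last was -0.57 (0.159). Under median-ratio scaling the last was -0.69 (limma, adjusted p = 0.113). Leaving out either library of the group itself also ended each of these 3 calls (limma, adjusted p = 0.0639 to 0.176), and the BM call was further lost without either LN-derived CD44high or either lung-derived CD44low library (0.0546 to 0.0579). *Cdk4* overlaps *Tspan31* on the opposite strand, at 116 to 250.1 TPM.

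*Cdk6* (chr5:3341485-3531008, plus strand), the second kinase of the D cyclins, did not pass the test in any comparison. It ranged from 15.0 TPM in LN CD44low replicate 2 to 38.5 TPM in BM CD44low replicate 2, and neighbouring groups in the order of means overlapped except LN-derived CD44high cells, which lay just above BM-derived CD44high cells. *Cdk4* accordingly made up 92.1% to 97.8% of the summed *Cdk4* and *Cdk6* TPM in each of the 14 libraries.

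The INK4 inhibitors did not share 1 pattern: *Cdkn2a* and *Cdkn2b* were at or near 0 in LN- and BM-derived cells, where *Cdkn2c* was above MFP. *Cdkn2a* and *Cdkn2b* lie next to each other on chromosome 4 (89274471 to 89294653 and 89306299 to 89311039, minus strand of mm10). *Cdkn2a* encodes both Ink4a, which inhibits Cdk4 and Cdk6, and Arf, which protects the p53 protein from Mdm2, from 2 transcripts with separate starts, and *Cdkn2b* encodes Ink4b. The bases just upstream of these 3 starts are shown because both genes were at or near 0 in the same libraries, and the start of *Cdk4* is shown beside them as that of a gene high in every library. Windows are 250 bases before the RefSeq start on GRCm38.p6, written 5′ to 3′ on the strand of the gene, and capitals mark the motifs searched on both strands. The windows are, in order, chr4:89294620-89294869 and chr4:89282193-89282442 (both minus), chr4:89311033-89311282 (minus) and chr10:127063285-127063534 (plus).
Cdkn2a, start of the Arf transcript: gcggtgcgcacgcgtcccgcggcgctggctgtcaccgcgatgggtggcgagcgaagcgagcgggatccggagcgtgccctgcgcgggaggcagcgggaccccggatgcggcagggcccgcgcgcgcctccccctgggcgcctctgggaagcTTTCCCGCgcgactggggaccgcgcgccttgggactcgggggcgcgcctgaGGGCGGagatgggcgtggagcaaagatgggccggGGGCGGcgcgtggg
Cdkn2a, start of the Ink4a transcript: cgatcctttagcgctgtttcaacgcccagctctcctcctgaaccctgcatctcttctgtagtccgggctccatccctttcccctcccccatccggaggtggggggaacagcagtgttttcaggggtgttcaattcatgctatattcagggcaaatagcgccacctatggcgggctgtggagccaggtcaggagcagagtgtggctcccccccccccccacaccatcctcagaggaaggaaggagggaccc
Cdkn2b: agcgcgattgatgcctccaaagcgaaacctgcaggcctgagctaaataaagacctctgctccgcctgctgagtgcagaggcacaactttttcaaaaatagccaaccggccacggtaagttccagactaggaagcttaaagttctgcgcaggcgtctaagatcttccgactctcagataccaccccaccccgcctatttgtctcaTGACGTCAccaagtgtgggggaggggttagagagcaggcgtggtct
Cdk4: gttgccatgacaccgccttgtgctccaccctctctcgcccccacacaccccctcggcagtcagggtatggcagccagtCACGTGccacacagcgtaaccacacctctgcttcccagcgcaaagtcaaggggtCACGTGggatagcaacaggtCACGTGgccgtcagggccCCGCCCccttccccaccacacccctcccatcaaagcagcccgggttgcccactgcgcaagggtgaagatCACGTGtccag

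The motifs were the E-box CACGTG, the GC box GGGCGG, the E2F site written as TTTCGCGC or as TTTGGCGC or as TTTCCCGC, the AP-1 site TGACTCA and the cAMP response element TGACGTCA. No match overlapped another in these windows, and the GC box of *Cdk4* lies on the other strand. The window of the Arf start held 1 E2F site and 2 GC boxes, and its base composition was 78.4% G or C. That of the Ink4a start held none of the 5 motifs, with 60% G or C. The *Cdkn2b* window held 1 cAMP response element, which 1.55% of all 32851 RefSeq windows of this length hold. The *Cdk4* window held 4 E-boxes and 1 GC box. At least 1 E-box is in 6.02%, a GC box in 32.7%, an E2F site in 1.53% and an AP-1 site in 4.46% of all windows. Windows were matched for 7 of the 10 genes, not for *Ccnd1*, *Ccnd2* and *Rb1*, and a motif match describes letters, not binding.

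In MFP *Cdkn2b* was at 66.2 and 51.9 TPM, and lung-derived CD44low cells had 113 and 71.6 TPM. In lung-derived CD44high cells it was at 0.49 and 0.26 TPM. In LN- and BM-derived CD44low cells it was at 0 to 0.16 TPM, and in LN- and BM-derived CD44high cells it was listed at 0 in all 4 libraries. The 14 libraries thus fell into 4 at 51.9 TPM or more and 10 at 0.49 TPM or less. Compared to MFP, the log2 fold change was -5.79 ± 0.28 in LN-derived CD44low, -5.82 ± 0.28 in BM-derived CD44low and -5.44 ± 0.28 in lung-derived CD44high cells (limma, adjusted p = 9.66e-07, 9.77e-07 and 5.65e-07), and these calls were kept with each of the 14 libraries left out. LN- and BM-derived CD44high cells were also DEGs for it, with no fold given. In lung-derived CD44low cells the difference from MFP had a 95% interval of -0.02 to 1.23 on the log2 scale and did not pass the test (limma, adjusted p = 0.104).

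*Cdkn2a* followed the same order at much lower levels. It was at 4.57 and 4.43 TPM in lung-derived CD44low cells, and MFP came next with 1.27 and 0.98 TPM. Lung-derived CD44high cells had 0.65 and 0.28 TPM, and the gene was listed at 0 in all 8 LN and BM libraries. None of these 4 sets overlapped. The difference from MFP passed the test in all 4 LN and BM groups (limma, adjusted p = 0.00119 to 0.00179), with no fold given. Against MFP the log2 fold change was 1.38 ± 0.17 in lung-derived CD44low cells (limma, adjusted p = 1.08e-04) and -0.54 ± 0.17 in lung-derived CD44high cells (adjusted p = 0.0276), both under the fold set for a DEG. The latter was lost without MFP replicate 1 (-0.45, limma adjusted p = 0.128), without lung CD44high replicate 2 (-0.36, 0.132) and with median-ratio scaling (-0.44, 0.0587). TPM here sums both transcripts, so Ink4a and Arf were not separated.

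Of the neighbouring genes, *Mtap* did not share this pattern, and *Dmrta1* was too low to tell. *Mtap*, an enzyme of methionine salvage on the side of *Cdkn2a* with lower coordinates (chr4:89137122-89181081), ranged from 171 to 348 TPM in the 8 libraries where *Cdkn2a* was listed at 0, and was at 25.2 to 35.9 TPM in the lung libraries. It was lower in lung than in LN and BM by a log2 fold change of -3.09 ± 0.22 (limma, adjusted p = 1.67e-06). *Dmrta1*, beyond *Cdkn2b*, was at most 0.03 TPM in any library. RNA levels say nothing of the DNA or chromatin at this locus, which was not measured.

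**Figure D3:**
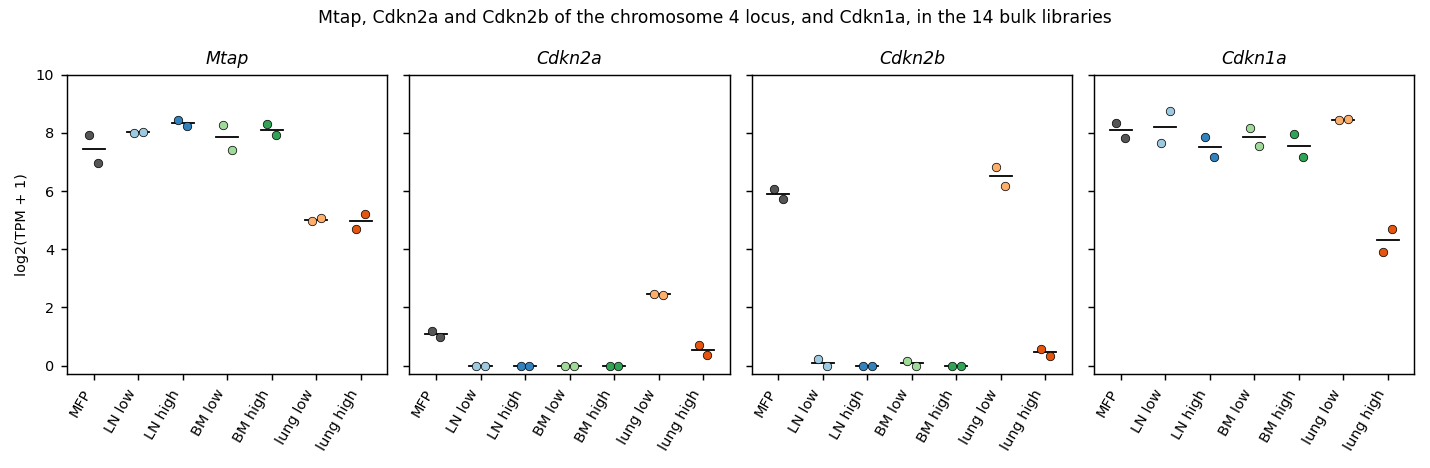
log2(TPM + 1) (y axis, shared) of *Mtap*, *Cdkn2a*, *Cdkn2b* and *Cdkn1a* in the 7 bulk groups (x axis). Points are libraries and lines group means. *Cdkn2a* and *Cdkn2b* were at or near 0 in LN- and BM-derived cells, where *Mtap* ranged from 171 to 348 TPM.

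*Cdkn2c* (chr4:109660876-109667189, minus strand), which encodes Ink4c, had the reverse order at its low end. It was at 2.21 and 3.59 TPM in MFP, 9.57 to 17.5 TPM in LN-derived, 19.9 to 50.6 TPM in BM-derived and 51.1 to 64.5 TPM in lung-derived cells. MFP lay below every line from another organ, and the 4 lung libraries above the 10 others. Compared to MFP, the log2 fold changes were 1.86 ± 0.41 in both LN-derived groups (limma, adjusted p = 0.0144 for CD44low and 0.00982 for CD44high), 3.10 and 2.99 in BM-derived CD44low and CD44high cells (5.78e-04 and 6.69e-04) and 3.87 and 4.01 in lung-derived CD44low and CD44high cells (4.66e-05 and 5.97e-05). The BM and lung calls were kept in all 14 fits that left out a library. The LN calls were lost without MFP replicate 1 (1.61 and 1.60, limma adjusted p = 0.109 and 0.0758), LN CD44low replicate 2 (1.46, 0.0954) or LN CD44high replicate 1 (1.68, 0.0719). When only the groups compared were fitted, the BM- and LN-derived CD44low calls were lost (limma, adjusted p = 0.0796 and 0.155), the latter also in the fit without the 4 lung libraries (0.0559). Between BM- and LN-derived cells the difference was 1.18 ± 0.29 and did not pass (limma, adjusted p = 0.0919), although the 4 BM libraries lay above the 4 LN libraries. Without BM CD44low replicate 1 it was 1.5 (adjusted p = 0.00657), and without LN CD44low replicate 2 it was 1.38 (0.0497).

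With *Cdkn2d*, the remaining INK4 gene at 14.2 to 55.5 TPM in all libraries, the make-up of the INK4 transcripts could be given for all 4 genes. *Cdkn2d* held 44.6% to 79.0% of their summed TPM in LN- and BM-derived cells and *Cdkn2c* 21.04% to 55.4%, with *Cdkn2d* the larger except in BM CD44low replicate 2. *Cdkn2c* held 79.0% and 73.5% in lung-derived CD44high cells, 28.7% and 33.1% in lung-derived CD44low cells, and 2.47% and 4.61% in MFP. For each 100 TPM of *Cdk4* and *Cdk6*, the 4 inhibitors together held 53.1 and 34.8 TPM in lung-derived CD44low cells, 19.2 and 25.1 in lung-derived CD44high cells, 11.5 and 14.6 in MFP, and 4.56 to 10.7 in LN- and BM-derived cells. These are ratios of RNA and say nothing of protein.

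*Cdkn1b* (chr6:134920401-134925513, plus strand) was lowest in MFP, at 6.06 and 5.94 TPM, and highest in lung-derived CD44high cells, at 32.3 and 19.2 TPM, with the other groups between 6.9 and 19.8 TPM. It rose against MFP by a log2 fold change of 1.89 ± 0.43 in lung-derived CD44high cells (limma, adjusted p = 0.00686), or 1.53 (adjusted p = 0.0646) without lung CD44high replicate 1. In lung-derived CD44low cells, at 14.3 and 13.0 TPM, the difference of 1.07 ± 0.43 did not pass the test (limma, adjusted p = 0.0686). It passed with median-ratio scaling (1.17, limma adjusted p = 0.0237) and when only the groups compared were fitted (1.07, 0.0143). Without either BM-derived CD44low library the difference was also 1.07.

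*Rb1* (chr14:73183673-73325822, minus strand), the substrate of the pathway, was at 9.91 to 18.2 TPM in lung-derived CD44high, 8.88 and 12.3 TPM in lung-derived CD44low, and 3.74 to 7.54 TPM in the 10 other libraries. The 4 lung libraries lay above the rest, and against LN and BM the log2 fold change was 1.12 ± 0.22 (limma, adjusted p = 0.00176). Against MFP the change in lung-derived CD44high cells was 1.05 ± 0.37 (limma, adjusted p = 0.0478), a call that 9 of the 14 single-library omissions ended, with the highest adjusted p without lung CD44high replicate 1 (0.64, limma adjusted p = 0.301) and MFP replicate 1 (0.80, 0.249). The others were MFP replicate 2 and both libraries of the LN-derived CD44high, BM-derived CD44high and lung-derived CD44low groups (limma, adjusted p = 0.0631 to 0.0685). *Rb1* overlaps *Lpar6* and *Rcbtb2* on the opposite strand, at 3.5 to 10.7 and 9.61 to 59.5 TPM.

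Set against MFP, the primary tumor, the 10 genes gave 16 DEGs among 60 gene and group pairs, and 33 pairs with an adjusted p under 0.05. Over all genes tested the same rules called 9.66% and 28.2% of pairs. All 6 comparisons share the 2 MFP libraries. In the LN and BM comparisons the median log2 fold change over all genes was -0.34 to -0.04, and 0.02 to 0.12 under median-ratio scaling. In LN-derived cells 2 (CD44low) and 1 (CD44high) of the 10 were DEGs, where 4.79% and 6.12% of all genes were, and 4 and 5 passed the adjusted p alone (14% and 23.8%). In BM-derived cells 3 of the 10 were DEGs in each group (7.16% and 7.67%), and 5 and 6 passed the adjusted p alone (23.2% and 27%). In lung-derived cells 3 (CD44low, 18.8%) and 4 (CD44high, 13.5%) were DEGs, and 5 and 8 passed the adjusted p alone (45% and 36.1%). The DEGs were *Ccnd1*, *Ccnd2*, *Cdkn2b* and *Cdkn2c*. Fitted without the 4 lung libraries, an alternative chosen after seeing the data, the LN and BM groups gave 6 DEGs in place of 9 and 14 passing pairs in place of 20, and the *Ccnd2* and *Cdk4* calls were among those lost.

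The CD44 sort was compared within each organ, and over the 3 organs 2 DEGs and 4 passing pairs were found among 30 gene and organ pairs, where 3.87% and 10.4% of all pairs were called. In LN-derived cells 0 of the 10 genes passed the limma test, where 0.378% of all genes did (DEGs 0.208%), and 3 had an unadjusted p under 0.05. These were *Ccnd1* (log2 fold change of 1.42, interval 0.31 to 2.53, adjusted p = 0.357), *Ccnd2* (-2.74, interval -4.22 to -1.26, 0.163) and *Cdk4*, named after their values were seen. The 2 libraries of each group did not overlap for *Ccnd1*, *Ccnd2*, *Cdk4* and *Cdkn1b*. The share of all genes without such overlap, or with an unadjusted p under 0.05 in this or another comparison, was not counted. In BM-derived cells 0 of the 10 passed the limma test (0.15% of all genes, DEGs 0.104%) and 0 had an unadjusted p under 0.05. In lung-derived cells 4 of the 10 passed the test (30.7% of all genes), each lower in CD44high cells (18.5%), and 2 of them were DEGs (11.3%). The log2 fold changes were -6.05 ± 0.28 for *Cdkn2b* (limma, adjusted p = 1.49e-07), -4.96 ± 0.66 for *Ccnd2* (3.43e-04), -1.92 ± 0.17 for *Cdkn2a* (1.43e-05) and -1.19 ± 0.27 for *Ccnd3* (0.00859), the last with an adjusted p of 0.05 without lung CD44low replicate 1. In these same libraries 6 of 7 fibroblast markers fell, and 2 epithelial markers, *Krt8* and *Krt18*, rose, and their part in these 4 differences was not tested.

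**Figure D4:**
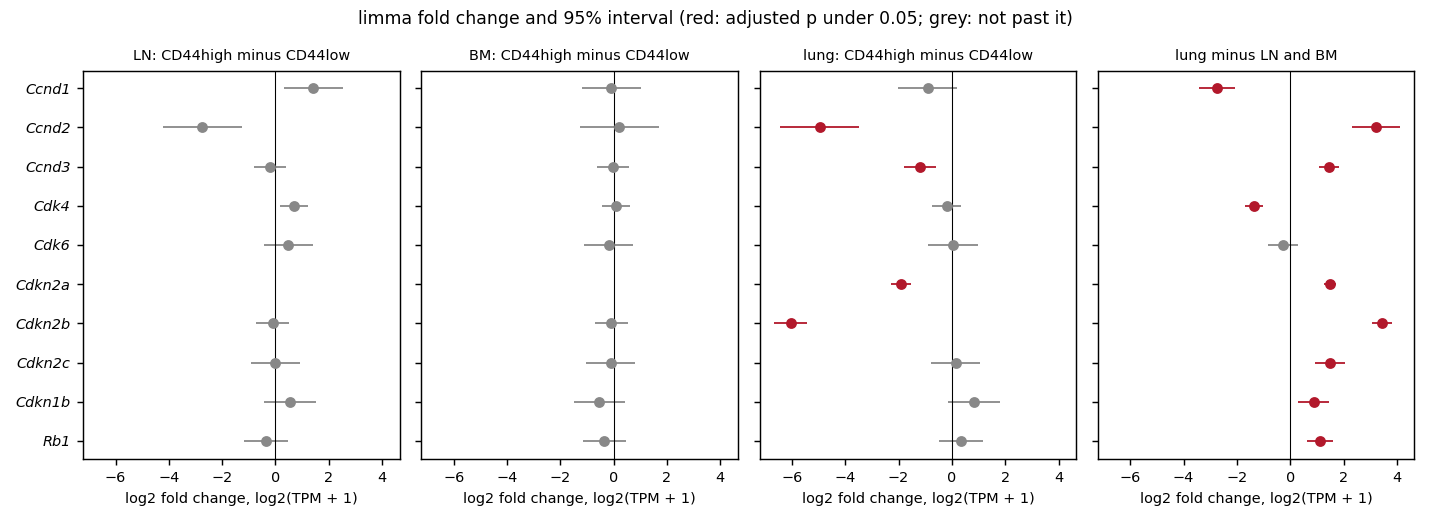
log2 fold change on the log2(TPM + 1) scale with its 95% interval (x axis) for each gene (y axis) in 4 comparisons fitted with limma. Red points passed an adjusted p of 0.05 and grey points did not. *Cdkn2a* is not drawn for LN and BM, where it was listed at 0, and 4 genes passed in the lung CD44 comparison against 0 in LN and BM.

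The difference in the CD44 effect between organs was tested directly by interaction contrasts. Between lung and LN, 3 of the 10 genes passed (19.5% of all genes): *Cdkn2b* (-5.94 ± 0.39, limma adjusted p = 4.41e-06), *Ccnd1* (-2.34 ± 0.70, 0.0434) and *Cdkn2a*. Between lung and BM, 3 passed (15.3%): *Cdkn2b* (-5.97 ± 0.39, limma adjusted p = 4.18e-06), *Ccnd2* (-5.16 ± 0.94, 0.00413) and *Cdkn2a*. *Cdkn2a* was listed at 0 in LN and BM, so its contrast is the lung difference itself. Between BM and LN 0 of the 10 passed the limma test (0.143%), and 1, *Ccnd2*, had an unadjusted p under 0.05. Contrasts over 1 that did not pass the limma test were those of *Ccnd2* between lung and LN (-2.22, adjusted p = 0.131), of *Cdkn1b* (1.35, 0.183) and *Ccnd3* (-1.17, 0.0716) between lung and BM, and of *Ccnd2* (2.94, 0.525), *Ccnd1* (-1.52, 0.775) and *Cdkn1b* (-1.08, 0.814) between BM and LN. The *Ccnd3* contrast passed without either MFP library (limma, adjusted p = 0.0356 and 0.0357) and under median-ratio scaling (-1.43, 0.0278), and the *Cdkn1b* contrast between lung and BM passed without BM CD44low replicate 1 (2.03, 0.0185). The *Ccnd1* contrast was lost in 9 of the 14 fits without a single library. These were any of the 4 LN libraries, either BM-derived CD44high library, either lung-derived CD44low library and lung CD44high replicate 1, with limma adjusted p of 0.0556 to 0.155 and values of -2.70 to -1.75.

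Across organs, 9 of the 10 genes passed the adjusted p between the 4 lung and the 8 LN and BM libraries, where 59.9% of all genes did, and 3 were DEGs (12.7%). *Ccnd1* and *Cdk4* were lower in lung (2 of the 10, 24% of all genes), and 7 were higher (35.9%), with *Cdkn2b* at 3.43 ± 0.17 and *Ccnd2* at 3.21 ± 0.41 (limma, adjusted p = 1.43e-07 and 9.25e-05). For *Ccnd2* the lung-derived CD44high libraries overlapped with LN and BM, and for *Cdkn2b* they lay above them by less than 0.5 TPM. *Ccnd3* rose by 1.47 ± 0.17 (limma, adjusted p = 4.5e-05), *Cdkn2c* by 1.49 ± 0.25 (6.42e-04) and *Cdkn1b* by 0.88 ± 0.26 (0.0159), the last not passing without lung CD44low replicate 1 (0.85, 0.0594) or lung CD44high replicate 1 (0.70, 0.0815). The median over all genes was 0.20 in this contrast, and -0.03 with median-ratio scaling, under which no direction turned among those with a fold given. Between BM and LN 0 of the 10 passed the limma test (1.81% of all genes, DEGs 0.397%), and 2 had an unadjusted p under 0.05, *Cdkn2c* and *Ccnd2* (1.32, interval 0.27 to 2.36, adjusted p = 0.261).

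Of 3 other inhibitors of cyclin-dependent kinases, 2 were DEGs between the lung CD44 groups, both lower in CD44high cells, where 18.5% of all genes were lower and 11.3% were DEGs. *Cdkn2d* did not pass (limma, adjusted p = 0.0736). *Cdkn1a*, the Cip/Kip inhibitor induced by p53, was at 345 and 351 TPM in lung-derived CD44low and 14.1 and 24.9 TPM in lung-derived CD44high cells, against 142 to 426 TPM in the 10 other libraries. Between the lung groups it fell by 4.14 ± 0.45 (limma, adjusted p = 7.61e-05). *Cdkn1c*, an imprinted member of that family, was at 7.78 and 7.11 TPM in lung-derived CD44low cells and at 0 to 0.27 TPM elsewhere. *Cdkn2d* rose against MFP in both BM-derived groups and LN-derived CD44high cells, by 1.02 to 1.17 (limma, adjusted p = 0.00811 to 0.0136).

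Downstream of the retinoblastoma protein, the replication genes that E2F factors drive were low in the bulk lung libraries. All 14 of the list fell against LN and BM, 12 of them as DEGs, where 24% of all genes fell and 12.7% were DEGs in either direction. The median log2 fold change was -3.11 against 0.20 over all genes. The largest falls were those of *Mcm6* (-5.48), *Mcm5* (-5.26), *Tk1* (-4.93) and *Rrm2* (-4.61), with limma adjusted p of 4.72e-05 or less. Against MFP, 14 and 13 of the 14 fell in lung-derived CD44low and CD44high cells, where 45% and 36.1% of all genes passed in either direction. Of 12 pocket protein and E2F genes, 5 were higher and 4 lower in lung than in LN and BM, where 35.9% of all genes were higher and 24% lower, so these counts lay near the background. *Rbl2*, a relative of *Rb1*, was higher (1.86), and the E2F repressors *E2f8* (-3.04) and *E2f7* (-2.76) were the 2 DEGs, both lower. Of the 8 other G1 and S phase genes, 2 were higher and 4 lower, led by *Ccna2* (-6.17), *Ccne2* (-3.35) and *Ccne1* (-2.31), the cyclins that partner Cdk2. All 20 mitosis genes fell as DEGs in lung, where 12.7% of all genes were DEGs in either direction. Their summed levels were 9.85 to 108 TPM against 611 to 5957 TPM in LN and BM. LN CD44low replicate 2 held the lowest of the latter.

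Among genes that govern the turnover of D cyclins and of the Cdkn1b protein, 4 of 6 were higher and 2 lower in lung than in LN and BM, in a contrast where 59.9% of all genes passed. *Skp2* and *Cks1b*, which target Cdkn1b for degradation, were lower, with log2 fold changes of -2.48 ± 0.30 and -2.76 ± 0.27 (limma, adjusted p = 6.31e-05 and 1.66e-05). *Fbxo4* (1.52) and *Fbxo31* (1.37), whose products take part in D cyclin degradation, rose, but the lung levels of both differed by group. Lung-derived CD44low cells had 37.2 and 35.93 TPM of *Fbxo4* and 19.2 and 20.1 TPM of *Fbxo31*. Lung-derived CD44high cells had 16.25 and 12.17 TPM of *Fbxo4*, within the 5.25 to 20.68 TPM of LN and BM. They had 1.99 and 1.14 TPM of *Fbxo31*, within the 0.32 to 13.9 TPM of LN and BM. Of 10 tested regulators of the Ink4 locus out of 11 listed, 5 were higher and 1 lower, against 35.9% and 24% of all genes. *Tbx3*, a repressor of Arf, was at 19.8 and 19.5 TPM in lung-derived CD44low cells and at 0 to 1.31 TPM elsewhere. *Cbx7*, a Polycomb protein that represses the locus, was at 10.0 and 13.6 TPM there and at 0.43 to 3.16 TPM elsewhere. *Ezh2*, a Polycomb methyltransferase named after its values were seen, was at 345 TPM in BM CD44low replicate 2 and at 3.83 to 25.2 TPM in the 13 other libraries. The part of these regulators in the *Cdkn2a* and *Cdkn2b* levels was not tested, and Arf was not measured apart from Ink4a. Of the Arf partners, *Trp53* fell in lung against LN and BM (-1.16 ± 0.20, limma adjusted p = 7.19e-04) and *Mdm2* did not pass (0.201).

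The single-cell libraries give the same genes as whole-number counts, 3' tags summed over the cells with over 250 genes and under 10% mitochondrial counts. These were 1236 of 3623 barcodes with 2210623 counts in lungH, 348 of 2808 with 2220759 counts in lungL, and 2562 of 3297 with 5287425 counts in lymphH. With 1 library per group there is no test, and the Poisson intervals cover counting error only. No count profile was shared between libraries. The 7 epithelial markers summed to 4.27 counts per 10000 in lungH, 0.68 in lungL and 6.28 in lymphH, with 4, 4 and 2 of them at 0, and *Epcam* alone to 0.0136 (3 counts), 0 and 1.77. The 7 fibroblast markers summed to 0.267, 21.4 and 0.115 per 10000.

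*Ccnd2* and *Cdkn2b* were higher in lungL than in the other libraries, but the make-up of the D cyclins in lungH was not that of bulk. In 3' tags *Ccnd1* led in lungH, with 1727 counts against 179 of *Ccnd3*, whereas in bulk *Ccnd3* led in lung-derived CD44high cells. *Ccnd1* also led in lymphH, as in bulk. In lungL *Ccnd1* had 818 and *Ccnd2* 745 counts, with overlapping intervals (3.44 to 3.94 and 3.12 to 3.6 per 10000), so no order was resolved. In bulk *Ccnd2* led in lung-derived CD44low cells. The 101 lungL cells with at least 2 counts of mitosis genes held 509 counts of *Ccnd1* and 217 of *Ccnd2*, and the 247 others 309 and 528. *Ccnd2* was at 3.35 counts per 10000 in lungL (95% interval 3.12 to 3.6), 0.195 in lungH (0.141 to 0.262) and 0.0303 in lymphH (0.0173 to 0.0491). That is 17.2 times the lungH and 111 times the lymphH level. *Cdkn2b* had 57 counts in lungL (0.257 per 10000, 0.194 to 0.333) and none in lungH or lymphH, which allows up to 0.0136 and 0.00567 per 10000 at 3 counts. *Ccnd3* was 2.01 times as high in lungL (1.63) as in lungH (0.81). *Cdkn2a* had 3 counts in lungH and none in the other libraries, so its level was not resolved at this depth.

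The *Ccnd1* level in single cells did not follow the bulk order, and the *Cdk4* levels lay closer together than in bulk. *Ccnd1* was at 7.81 per 10000 in lungH (7.45 to 8.19), 6.54 in lymphH (6.32 to 6.76) and 3.68 in lungL (3.44 to 3.94), so that lungH was highest, whereas in bulk the lung-derived CD44high group had the lowest mean. *Cdk4* was at 5.17, 5.76 and 5.35 per 10000 in lungH, lymphH and lungL, a range of 1.11 times, whereas bulk LN-derived CD44high cells held 1067 and 1139.9 TPM against 350.1 and 329.7 TPM in lung-derived CD44high and 374 and 409.9 TPM in lung-derived CD44low cells. *Cdkn2c* was at 0.651, 0.876 and 0.347 per 10000, with lymphH highest, whereas bulk lung levels were highest. Mitosis genes moved with the *Ccnd1* values, at 22.6 per 10000 in lungH, 19.98 in lymphH and 6.61 in lungL. In bulk their sum was at most 108 TPM in lung-derived CD44high cells and at least 5188 TPM in LN-derived CD44high cells. The E2F target replication genes were at 34.1 per 10000 in lungH, 22.6 in lymphH and 15.2 in lungL, so lungH was highest, whereas they were low in both bulk lung groups. The labels do not say which bulk isolate, if any, a single-cell library shares, and the units differ, so the values stand side by side without a test.

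**Figure D5:**
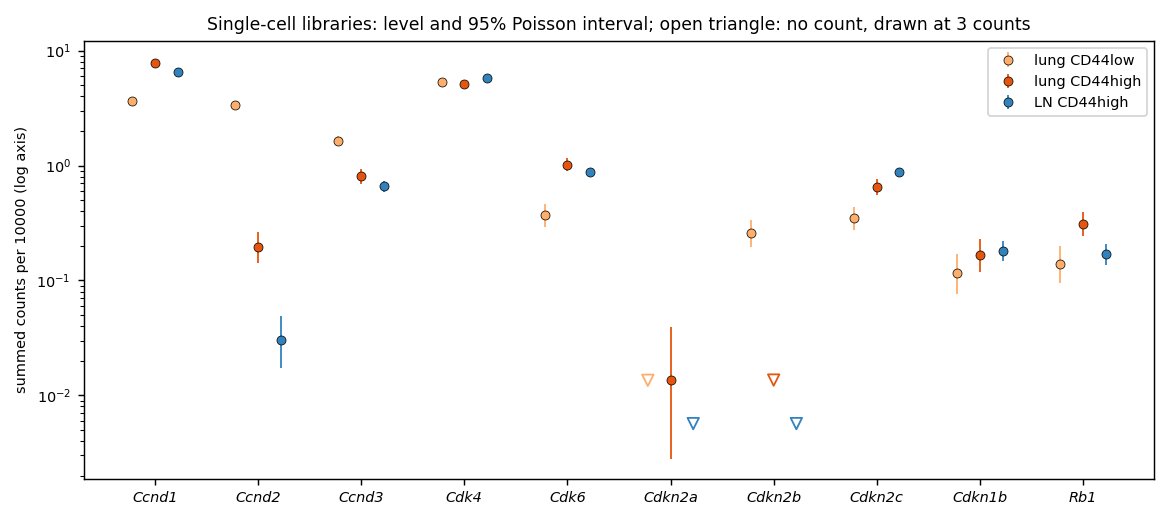
Summed counts per 10000 (y axis, log scale) of the 10 genes (x axis) in the 3 single-cell libraries, with 95% Poisson intervals. Open triangles mark genes without a count, drawn at 3 counts. *Ccnd2* was at 3.35 in lungL, 0.195 in lungH and 0.0303 in lymphH, while *Cdk4* lay between 5.17 and 5.76 in all 3.

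*Cdk6* was at 1.02 per 10000 in lungH, 0.878 in lymphH and 0.369 in lungL. *Cdkn1b* was at 0.167, 0.182 and 0.117 per 10000, with overlapping intervals, and *Rb1* at 0.312 in lungH against 0.168 in lymphH and 0.14 in lungL. Within a library, cells with at least 2 counts of mitosis genes were set beside the other cells, 363 and 873 in lungH, 101 and 247 in lungL, and 808 and 1754 in lymphH. *Cdkn2c* was higher in the former in all 3 libraries, by 2.48 times in lungH, 4.69 times in lungL and 1.5 times in lymphH, with intervals that did not overlap. *Ccnd1* was also higher, by 1.27, 2.36 and 1.58 times. *Cdk4* was higher in lungH (5.71 against 4.4 per 10000) and lymphH (6.05 against 5.26), and its intervals overlapped in lungL (5.78 against 5.06). *Ccnd2* was lower in lungL, at 2.37 against 4.04 per 10000. Depth differed with this split in all 3 libraries, and its part was not tested. Cells with mitosis counts had a mean of 3567 counts against 1049 in lungH, 9049.6 against 5290.5 in lungL and 4128 against 1113 in lymphH, with medians of 626 against 543, 9698 against 2186 and 638.5 against 562. *Ccnd3* was higher in such cells of lymphH, at 0.789 against 0.435 per 10000, and the intervals overlapped in lungH (0.85 against 0.753) and lungL (1.71 against 1.58).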

How the data were processed

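Bulk libraries were made with a modified SMART-seq2 protocol, and the authors, using STAR (mm10) and RSEM (GENCODE v21), deposited TPM per gene. Single cells were captured with ddSeq (SureCell), and the authors ran kallisto and deposited unfiltered counts per gene and barcode. Symbols came from the 35849 paired names of the lungH matrix and positions from GENCODE vM21. Here, 15348 genes that reached 1 TPM in 2 or more of the 14 libraries entered a limma 3.58.1 fit (R 4.3.3; moderated with a mean-variance trend) of log2(TPM + 1) on the 7 groups, which left 7 residual degrees of freedom. The p-value was adjusted by Benjamini-Hochberg over all genes of a comparison. The edgeR test of the study was not used here, since TPM are not counts. Alternatives were other scalings, pseudocounts, filters and fold thresholds, fits of fewer groups, a replicate block and each library left out. Single-cell counts were summed per library with exact Poisson 95% intervals (SciPy 1.17.1), and a count of 0 was given a limit of 3 counts. Doublets were not called. All 10 genes were named, fold changes were given for pairs with an absolute log2 fold change over 1 or an adjusted p under 0.05, and of each gene list up to 4 called genes with the largest changes, to which members needed for the locus or sorting were added. The genes and lists were chosen with earlier results of these data known. Scripts were tested on simulated data.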

Additional observations from a re-analysis of the deposited data

Results flagged for a closer look

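The CD44high minus CD44low difference differed between organs, by a limma interaction contrast, in 6 cases. For *Cdkn2b* the contrast was -5.94 between lung and LN and -5.97 between lung and BM, since it was at 113 and 71.6 TPM in lung-derived CD44low and at 0.49 and 0.26 TPM in lung-derived CD44high cells, and at most 0.16 TPM in LN and BM. For *Cdkn2a* it was -1.92 against each of LN and BM, where the gene was listed at 0. For *Ccnd2* it was -5.16 between lung and BM. For *Ccnd1* it was -2.34 between lung and LN, where the difference was -0.92 in lung and 1.42 in LN and neither passed on its own. Fibroblast markers differed between the lung groups in the same direction as *Cdkn2b*, *Cdkn2a* and *Ccnd2*, and their part was not tested. In MFP these markers summed to 0.48 to 1.27 TPM, with *Cdkn2b* at 66.2 and 51.9 TPM and *Cdkn2a* at 1.27 and 0.98 TPM.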

How the results depend on the processing

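No direction turned among 56 gene and comparison pairs, or those of them that a setting could give, under a pseudocount of 0.1, no filter or a filter of 5 TPM, median-ratio scaling, the replicate block, fits of only the groups compared, each of the 14 libraries left out, and the fit without lung. With a fold threshold of 1 in place of 2, the DEGs were 28 against MFP (16), 4 for the CD44 sort (2) and 8 for lung against LN and BM (3). Fits of only the groups compared gave 19 pairs past the adjusted p against MFP in place of 33. Without the filter, 6 calls ended: *Ccnd2* in LN- and BM-derived CD44low cells (adjusted p = 0.0734 and 0.0659), *Cdk4* in LN- and BM-derived CD44high cells (0.0515 and 0.0636), *Rb1* in lung-derived CD44high cells (0.0735) and the *Ccnd1* contrast between lung and LN (0.0869). With each library left out, the BM against LN count past the adjusted p ranged from 0 to 1. Of 45 pairs past the adjusted p, 26 were kept in all 14 such fits. Replicate numbers showed little pairing over all group pairs (correlations of deviations from -0.194 to 0.168 over 21 group pairs, 3 over 0.1). Pairs of CD44low and CD44high groups from the same organ were not examined apart. The replicate block ended 2 calls, *Rb1* in lung-derived CD44high cells against MFP (limma, adjusted p = 0.0687) and the *Ccnd1* contrast between lung and LN (0.0603). TPM carries no read depth, so the counting error of *Cdkn2a* and of values near 0 is unknown.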

Other observations

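Across the 14 bulk libraries, the genes with the highest Pearson correlation to *Cdkn2b* were *Gng11* (0.995), *Hspb1* (0.995) and *2210016F16Rik* (0.990), and those to *Ccnd2* were *Zc4h2* (0.950), *Gm19935* (0.940) and *Bicc1* (0.934). For *Ccnd1* they were *Gm4864* (0.963), *Mlkl* (0.963) and *Tubb6* (0.959), and for *Cdkn2c* *Zcchc24* (0.952), *Gstm1* (0.949) and *Fgfr1* (0.943). The 14 points share 7 groups, so these values describe a common order of groups.

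The following genes were picked after their values were seen. BM CD44low replicate 2 stood apart from its partner for *Cdkn2c* (50.6 against 19.9 TPM), *Cdkn1b* (19.8 against 7.15 TPM), *E2f4* (37.5 against 7.52 TPM), *E2f6* (19 against 2.23 TPM) and *Fbxo31* (13.9 against 1.01 TPM). In LN CD44low replicate 2, *Ccna2* was at 25.4 against 231 TPM in its partner, while *Ccnd1* was at 175 against 256 TPM and *Cdkn1a* at 426 against 198 TPM.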
